A study of Mus musculus with 3 samples.

Results

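IgA plasma cells of the mouse small intestine were examined in single-cell RNA counts of the duodenum, the jejunum and the ileum. They were the barcodes with 800 to 50000 unique molecular identifiers (UMIs, each marking 1 captured transcript) and at most 40% mitochondrial (mt-) UMIs that held at least 3 Mzb1 UMIs, at least 50 Jchain UMIs per 10000 UMIs, at least 20 Igha UMIs and no Cd3e UMI. In all, 65 of the 27235 deposited barcodes were chosen, or 65 of the 16774 within the limits on UMIs and mt- UMIs (0.388%). The duodenum gave 26 of 4281 such barcodes (0.607%, exact 95% binomial interval 0.397 to 0.889%), the jejunum 28 of 4380 (0.639%, 0.425 to 0.923%) and the ileum 11 of 8113 (0.136%, 0.0677 to 0.242%). Each segment was 1 droplet library made from pooled cells of 3 male wild-type C57BL/6N mice aged 12 weeks, and no animal received a treatment or carried a transgene. The cells were released from the tissue with EDTA, labelled as intestinal epithelial cells, and sorted as live, propidium iodide-negative cells, which the study describes as epithelial cells with intraepithelial immune cells. With 1 library for each segment, segments were not tested, and intervals cover counting error only.

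Plasma cells are the end stage of B cell development and secrete antibody. In the gut most of them make IgA, built from alpha heavy chains (Igha) and kappa or lambda light chains, and the J chain (Jchain) links IgA units so that the epithelial receptor encoded by Pigr can carry them into the lumen. The cells lie mainly in the lamina propria beneath the epithelium, and their endoplasmic reticulum (ER) is enlarged to import, fold, glycosylate and export antibody, with Mzb1 as 1 of its helper proteins.

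The genes of the rule chose the members, so their values are a description. Igha (ENSMUSG00000095079, an immunoglobulin constant gene on chromosome 12 of GRCm38, 113254830 to 113260236, minus strand) made up 1480 UMIs per 10000 UMIs of the duodenal members, 1691 of the jejunal and 1323 of the ileal ones. In epithelial barcodes, which should lack the transcript, Igha stood at 0.492, 0.508 and 0.181 UMIs per 10000 in the same order. Jchain lay between 67.4 and 994 UMIs per 10000 in single members, with a median of 628, and Mzb1 between 3 and 303 UMIs. The weakest members held 4 (duodenum), 3 (jejunum) and 17 (ileum) Mzb1 UMIs, and the best barcodes that failed this limit alone held 2, 0 and 1. The lowest Jchain level of a member was 71.9, 67.4 and 179 UMIs per 10000 in the same order, and the highest level among barcodes that failed on Jchain alone was 41.2 (jejunum) and 12.9 (ileum). The fewest Igha UMIs in a member were 502, 94 and 1153, whereas the 6 ileal barcodes that failed on Igha alone had at most 4. One more barcode was lost for its 52272 UMIs and 1 for a Cd3e UMI.

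The label was checked against genes that the rule did not use. Tnfrsf17 (BCMA, a survival receptor of plasma cells) was counted in 23 of 26, 22 of 28 and 10 of 11 members, and in 3 of 3880, 2 of 3880 and 1 of 5133 epithelial barcodes, whose median depth was 12956, 12243.5 and 6647 UMIs. Derl3, a gene of ER-associated degradation, was counted in 26, 22 and 11 members and in 6, 5 and 15 epithelial barcodes. With each barcode thinned to 800 UMIs, a Derl3 UMI remained in 7, 8 and 2 members and in 1 of 39, 1 of 31 and 4 of 657 of the B cell barcodes that served as the comparison group. Xbp1, the transcription factor that enlarges the secretory apparatus, was counted in 65 of 65 members and Sdc1 (syndecan-1, the plasma cell surface marker CD138) in 58, but both were also found in epithelial barcodes (54.6 to 66.3% and 20.1 to 39.1%). Ms4a1, which encodes the B cell surface protein CD20, had no UMI in any member, which limits barcodes with a UMI at this depth to 4.62% but not cells that express the gene, and Pax5 had none either. RNA of other cell types was also present. The 13 enterocyte markers summed to 226, 127 and 440 UMIs per 10000 UMIs outside the immunoglobulin genes and Jchain (non-Ig UMIs) in the members of the duodenum, the jejunum and the ileum, against 595, 1022 and 734 in epithelial barcodes. The median member had 0.275% of its non-Ig UMIs from these markers and the highest 16%, and Epcam was counted in 50 of 65 members. The 10 T cell markers summed to 0.452, 0.0966 and 0.910 UMIs per 10000 non-Ig UMIs in members, with a UMI of 4, 2 and 4 of them, against 53.8, 81.7 and 70.3 in T cells. Doublets were not called. Between 20 and 28 barcode sequences recurred in each pair of libraries, none of them in members of both, and the barcode of 1 duodenal member also occurred in the jejunal library.

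Members had many more UMIs than other lymphocytes. Their median was 28106 UMIs (duodenum), 24835.5 (jejunum) and 28755 (ileum), against 2947, 3304 and 4347 in the Cd79a-positive barcodes with Jchain below 50 UMIs per 10000 that served as B cells for comparison (39, 31 and 657 barcodes). The gap was smaller for non-Ig UMIs, with medians of 8803.5, 5420 and 9092 against 2927, 3261 and 4346. The rule's limits on Mzb1 and Igha UMIs are absolute counts, which deep barcodes reach more easily, and their part in this gap was not tested. Immunoglobulin genes and Jchain held 60.4%, 66.2% and 60.9% of the members' UMIs and 0.654%, 0.771% and 0.690% of those of the comparison barcodes. For this reason genes outside these families are given per 10000 non-Ig UMIs, and immunoglobulin genes per 10000 UMIs of all genes.

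The members fell into 2 ranges of depth, a split that was seen in the data and carries no test. There were 15 members with 3293 to 7081 UMIs, 7 duodenal, 8 jejunal and none of the 11 ileal ones, and 50 members with 11330 to 44556 UMIs. The shallow members had a median of 13.9% mt- UMIs against 2.18% in the deep ones. Their ribosomal protein genes made up a median of 2.74% of non-Ig UMIs against 10.1%, and Jchain 155 against 691 UMIs per 10000. For Jchain the shallow members differed between segments, with a median of 108 in the duodenum and 412 in the jejunum, where 4 of 8 held 602 to 864. Malat1, a nuclear RNA, had a median of 824 UMIs per 10000 non-Ig UMIs in shallow members and 280 in deep ones. Sec61b, a subunit of the channel through which new proteins enter the ER, differed in the same direction as the ribosomal protein genes, at a median of 2.54 against 20.8. ER chaperones were closer, with medians of 239 and 278 UMIs per 10000 non-Ig UMIs summed over their list, as were the genes of ER-associated degradation with 107 and 95.7. The part of these values in the results that follow was not tested, and the main counts were repeated in deep members alone (570 higher and 388 lower genes against B cells).

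The ratio of heavy to light chain transcripts followed the same split. Deep members held 0.114 to 0.712 Igha UMIs for each light chain constant UMI, with a median of 0.342. Shallow members had a median ratio of 1.81 and a range from 0.0589 to 6.19. Igha exceeded the light chains in 11 members, namely the 7 shallow ones of the duodenum and 4 of the 8 shallow ones of the jejunum, and in 0 of the 50 deep ones. The lowest 3 ratios belonged to shallow jejunal members that shared the kappa V gene Igkv3-4. These held 7081, 6251 and 5665 UMIs and 130, 101 and 94 Igha UMIs, and enterocyte markers made up 6.99%, 5.57% and 5.27% of their non-Ig UMIs.

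**Figure D1:**
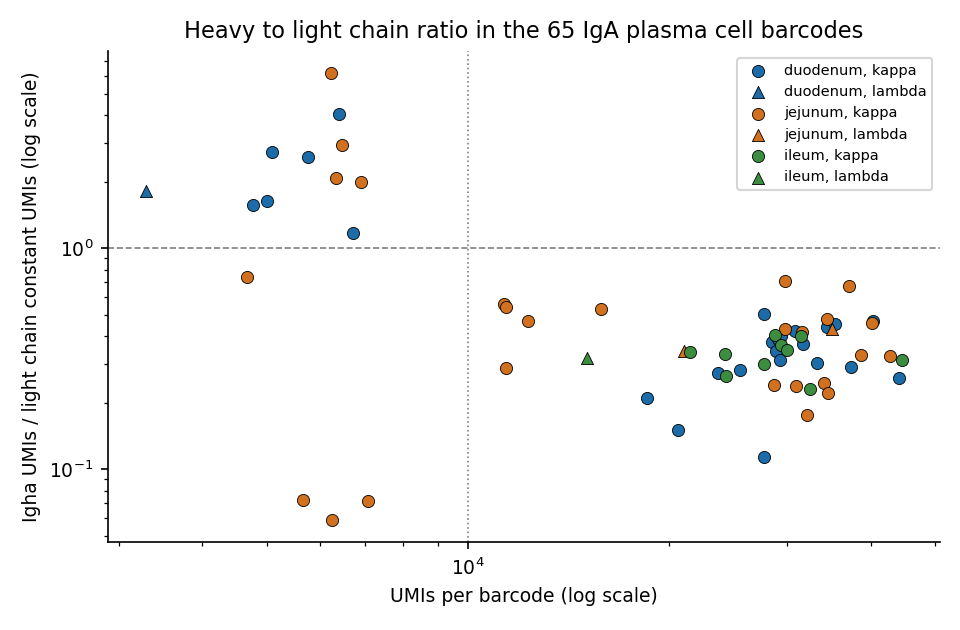
Ratio of Igha to light chain constant UMIs (vertical, log scale) against UMIs per barcode (horizontal, log scale) for the 65 members, coloured by segment, with circles for kappa and triangles for lambda; the dashed line marks equal numbers and the dotted line 10000 UMIs. All 50 members to the right of the dotted line lie between 0.114 and 0.712, and the 15 to its left reach from 0.0589 to 6.19.

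**Figure D2:**
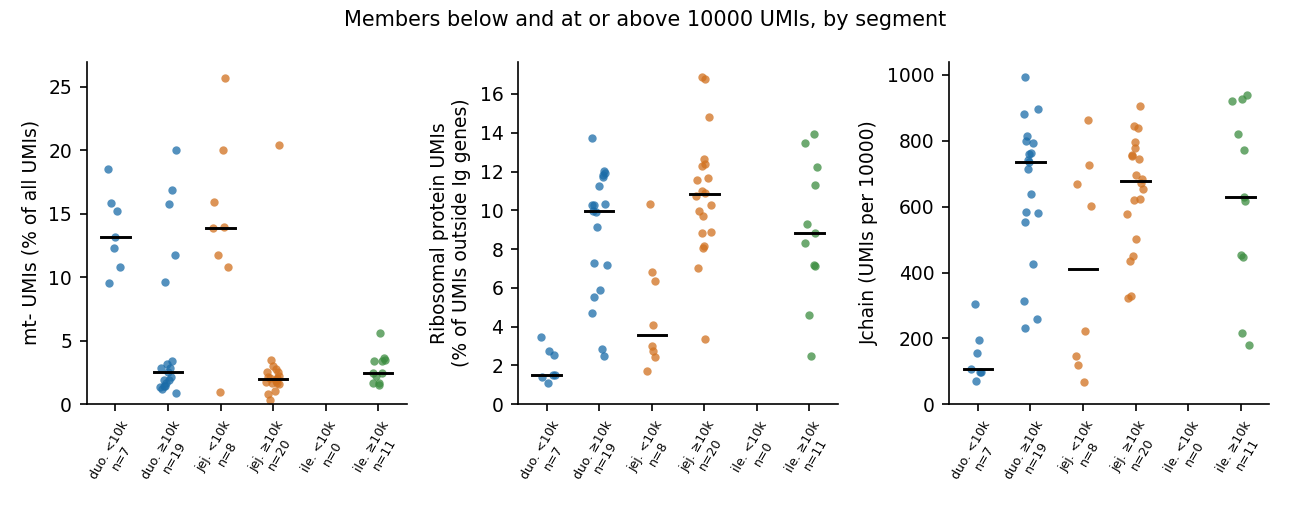
Share of mt- UMIs in all UMIs, share of ribosomal protein UMIs in non-Ig UMIs, and Jchain UMIs per 10000 UMIs, with 1 point for each member by segment and depth range and a bar at the median of each set. Members below 10000 UMIs had more mt- UMIs (medians 13.9% and 2.18%) and fewer ribosomal protein UMIs (2.74% and 10.1%), and no ileal member lay below 10000 UMIs.

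Igha led the heavy chain constant genes in 65 of 65 members and took at least 96.9% of their UMIs. In 43 members no other heavy chain constant gene had a UMI, and Ighg2b was second in 16. By their constant genes, light chains were of 1 class in each member. With a class called where it held at least 90% of at least 10 light chain constant UMIs, 61 members were kappa and 4 were lambda (6.15%, exact 95% binomial interval 1.70 to 15%), 1 duodenal, 2 jejunal and 1 ileal. The duodenal lambda member held 388 lambda and 1 Igkc UMIs, and the jejunal ones 10980 and 14042 lambda UMIs with 1 and 0 Igkc UMIs. The ileal lambda member had 3808 lambda and 215 Igkc UMIs and was the only member without a class at a limit of 95%. In some kappa members UMIs of lambda V genes outnumbered those of kappa V genes, as in the duodenal one of 27668 UMIs (271 against 38). In others they did not, as in the duodenal one of 28478 UMIs (1 against 46). The cause was not tested. Igkc (ENSMUSG00000076609, chromosome 6 of GRCm38, 70726435 to 70726966, plus strand) made up 3845 of every 10000 UMIs in the duodenal members, 3782 in the jejunal and 3912 in the ileal ones.

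V genes varied widely among members. A leading heavy chain V gene, with at least 60% of at least 5 V UMIs, was found in 48 members, and these used 28 different genes, 16 of them in 1 member each. The 17 members without one had fewer than 5 heavy V UMIs. Ighv1-55 led in 5 members, 4 duodenal and 1 jejunal, and Ighv7-1 in 5, 3 duodenal and 2 jejunal. A leading kappa V gene was found in 55 members, with 25 different genes, of which Igkv1-110 led in 7 members, 6 of them duodenal, and Igkv17-127 in 6, 5 of them jejunal. This call used kappa V UMIs only and left lambda V UMIs out. Both were known in 44 members, which formed 37 pairs of V genes, and 32 pairs occurred in 1 member. The other 5 pairs covered 12 members, and 4 of these pairs joined members of 2 segments: Ighv1-15 with Igkv17-127 (jejunum and ileum), Ighv1-39 with Igkv16-104 (jejunum and ileum), Ighv1-55 with Igkv8-27 (2 duodenal, 1 jejunal) and Ighv7-1 with Igkv10-96 (2 duodenal, 1 jejunal). Ighv1-58 with Igkv15-103 was found in 2 jejunal members of 11374 and 11330 UMIs. Since the cells of 3 mice were pooled, the members of a pair cannot be assigned to a mouse. The counts come from the 3′ end of transcripts, hold few V UMIs for each cell, and reads of similar V genes could be split, so a shared pair does not show a shared clone.

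The comparison with Cd79a-positive, Jchain-low barcodes asked how the members differed from other B lineage cells of the same libraries. IgA plasma cells had higher levels of genes for ER import, folding and glycosylation, of plasma cell transcription factors and of the survival receptor Tnfrsf17, and lower levels of B cell surface genes, MHC class II genes and cell cycle genes. UMIs were summed over the barcodes of each library and group and compared with edgeR's quasi-likelihood test, with library as a blocking term and p-values adjusted by Benjamini and Hochberg over the 4754 genes tested; every adjusted p given here is from such a fit. Of these genes, 644 (13.5%) were higher and 472 (9.93%) lower in the members at an adjusted p under 0.05. The median log2 fold change of all genes tested was -0.13. A gene with hardly any UMI in 1 group passed the filter on low counts through the other group and could only differ in that direction, so its call, and its place in the count and median of a list, is no support. For genes with 1 to 3 UMIs in 1 group the text gives, in place of the fitted value, the ratio of the summed levels per non-Ig UMI with an exact 95% interval for counting error alone. These ratios, and the folds against a floor of 3 UMIs for genes at 0, pool the libraries without pairing them. The comparison barcodes held 212373 (duodenum), 226090 (jejunum) and 4642193 (ileum) non-Ig UMIs, and the members 243116, 207092 and 120880. The folds thus rest mainly on ileal comparison barcodes. The comparison barcodes had a median of 7.75 to 10.4% mt- UMIs in the 3 libraries, against 2.18 to 3.28% in the members, and those of the jejunum held 19 Igha UMIs per 10000 UMIs against 1.26 and 2.83 in the other two. The part of these differences in the results was not tested. Scaling by total UMIs without the TMM factors, which then include the immunoglobulin UMIs, moved the median of all genes by -1.62 on the log2 scale, and the share of higher genes among the calls fell from 57.7% to 4.55%. Fold changes are therefore relative to the bulk of genes and not to all RNA of a cell. The lists and members were chosen for genes known from plasma cells, and the counts of a list are read against the 13.5% and 9.93% above.

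Among the 6 plasma cell transcription factors, 5 were higher and none was lower, with a median log2 fold change of 2.40. Xbp1 was counted at 29.8, 31.3 and 27.7 UMIs per 10000 non-Ig UMIs in the members of the duodenum, the jejunum and the ileum, and at 0.377, 0.973 and 0.939 in the comparison barcodes. These library values did not overlap, though the share of all tested genes without overlap was not counted. The log2 fold change was 5.50 (SE 0.44, adjusted p = 2.06e-06). Among single members Xbp1 varied from 2.43 to 99.9 UMIs per 10000 non-Ig UMIs. With each barcode thinned to 800 UMIs, an Xbp1 UMI remained in 13 of 26, 17 of 28 and 5 of 11 members and in 1 of 39, 1 of 31 and 46 of 657 comparison barcodes. Prdm1, which encodes the repressor Blimp-1 that ends the B cell programme, stood at 1.03, 1.06 and 1.74 against 0.0942, 0.265 and 0.185 (log2 fold change 3.10, SE 0.40, adjusted p = 9.63e-05). Irf4, another factor required for plasma cells, differed by 2.58 on the log2 scale (adjusted p = 0.000227), Ell2, an elongation factor that favours the secreted heavy chain form, 2.22 (adjusted p = 0.000226) and Creb3l2 2.19 (adjusted p = 0.00344). Bhlha15, the secretory cell factor Mist1, was at 0.740, 0.869 and 1.24 UMIs per 10000 non-Ig UMIs in members and at 0, 0 and 0.00646 in comparison barcodes, from 51 UMIs against 3 (ratio 151, interval 48.9 to 758). Bhlha15 was not in the list. Without TMM, 3 of the 6 factors of the list stayed higher and 1 became lower, and the calls for Ell2 (0.62, adjusted p = 0.0826) and Creb3l2 (0.56, adjusted p = 0.328) were lost.

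Proteins for secretion enter the ER through the translocation channel, and their signal peptides are cut off by signal peptidase. All 22 tested genes of this list were higher in the members, with a median log2 fold change of 2.82 against -0.13 over all genes, whereas without TMM 15 of the 22 were called higher, with a median of 1.21. Ssr4, a subunit of the complex next to the channel, was counted at 34.1, 45 and 45.5 UMIs per 10000 non-Ig UMIs in members against 1.27, 1.72 and 1.86 (log2 fold change 4.89, SE 0.38, adjusted p = 1.77e-06). Sec11c, a catalytic subunit of signal peptidase, was at 24.2, 33.4 and 34.3 against 0.753, 1.06 and 1.63 (4.97, SE 0.39, adjusted p = 2.06e-06). Tram2, Spcs3 and Sec61b had log2 fold changes of 4.95, 4.00 and 3.4. Of 13 tested genes of N-glycosylation, 12 were higher with a median of 2.43 (7 higher, 1 lower and 0.81 without TMM), among them Krtcap2 (3.69, adjusted p = 6.87e-06) and Ddost (3.33, adjusted p = 1.53e-05), both subunits of the oligosaccharyltransferase.

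Folding followed the same direction, with 26 of 28 tested ER chaperone and disulfide genes higher, none lower, and a median log2 fold change of 3.05 (1.43 without TMM, with 20 higher and 2 lower). Txndc5, a protein disulfide isomerase, was counted at 40.8, 52.3 and 40.8 UMIs per 10000 non-Ig UMIs in members and at 0.518, 0.531 and 0.916 in comparison barcodes (6.27, SE 0.45, adjusted p = 1.36e-06). Hspa5, which encodes BiP and binds unfolded heavy chains, was at 24.8, 36.5 and 25 against 2.73, 4.33 and 5.19 (3.05, SE 0.37, adjusted p = 6.50e-05), and Hsp90b1 (GRP94) at 33.6, 52.7 and 37.7 against 2.59, 3.27 and 3.05 (3.99, adjusted p = 5.68e-06). The lowest library of the members exceeded the highest of the comparison barcodes for each of these genes. This is a description only, since the share of all tested genes that did the same was not counted. Fkbp11 (6.74), Prdx4 (5.24), Pdia4 (4.90), Creld2 (4.72), Dnajc3 (4.29) and Calr (2.31) had adjusted p values between 1.36e-06 and 0.000227. Misfolded proteins are removed by ER-associated degradation, of which 13 of 17 tested genes were higher and none lower (median 1.85, and 0.23 without TMM with 8 higher and 4 lower). Derl3, a channel protein of this pathway, was at 6.83, 10.1 and 8.6 UMIs per 10000 non-Ig UMIs against 0.0471, 0.0885 and 0.0948 (6.81, SE 0.43, adjusted p = 8.25e-07). Edem2, Edem1 and Herpud1 had log2 fold changes of 5.63, 4.85 and 3.66.

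Promoters of ER chaperone genes are known to carry the ER stress response element, which is bound by ATF6 and XBP1 together with NF-Y. Windows from 250 bases before to 50 bases after gene starts (RefSeq, GRCm38.p6) were searched on both strands for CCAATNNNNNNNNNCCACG, the letters of this element. The letters occurred in 39 of 32851 windows (0.119%) and in 11 of 3788 matched genes tested here (0.290%). They occurred in 9 of 501 matched genes higher in the members (1.80%), in 0 of 354 that were lower, in 8 of 27 matched ER chaperone genes and in 2 of 18 matched genes of ER-associated degradation. The sequences are shown for the 10 genes of the 2 lists that hold the letters, the 9 higher genes and Canx, an ER chaperone that was tested and not called (log2 fold change 0.53, adjusted p = 0.246) (Ero1b is named Ero1lb in the counts). Each is printed 5′ to 3′ on the strand of its gene, with the 2 outer parts of the element in capitals (CGTGG before ATTGG where the element lies on the other strand), and the first base lies at position -212 to -44 from the gene start. A match is a description of the letters only.
Hspa5, chr2:34772020-34772048, plus strand: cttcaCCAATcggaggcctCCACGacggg
Hsp90b1, chr10:86705633-86705661, minus strand: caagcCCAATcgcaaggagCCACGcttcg
Hsp90b1, chr10:86705528-86705556, minus strand: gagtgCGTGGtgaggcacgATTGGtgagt
Calr, chr8:84847070-84847098, minus strand: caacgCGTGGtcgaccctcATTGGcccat
Creld2, chr15:88819515-88819543, plus strand: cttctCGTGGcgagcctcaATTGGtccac
Dnajc3, chr14:118937822-118937850, plus strand: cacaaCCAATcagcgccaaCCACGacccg
Pdia6, chr12:17266486-17266514, plus strand: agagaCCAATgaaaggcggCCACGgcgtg
Ero1b, chr13:12565677-12565705, plus strand: ggcctCGTGGtcccgcctcATTGGccgcc
Derl3, chr10:75893237-75893265, plus strand: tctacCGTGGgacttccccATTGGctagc
Syvn1, chr19:6046527-6046555, plus strand: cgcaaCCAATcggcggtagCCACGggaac
Canx, chr11:50325795-50325823, minus strand: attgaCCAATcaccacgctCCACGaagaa

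Folded proteins leave the ER in vesicles for the Golgi. Of 26 tested genes of ER to Golgi transport, 15 were higher and none lower, with a median of 1.39 that turned to -0.23 without TMM (6 higher, 8 lower). Lman1, a cargo receptor for glycoproteins, was at 5.55, 6.52 and 7.53 UMIs per 10000 non-Ig UMIs against 0.283, 0.885 and 0.455 (3.91, SE 0.38, adjusted p = 9.85e-06), and Tmed10 had a log2 fold change of 3.24. Of 9 genes of amino acid supply and translation control, 4 were higher (median 1.09, and -0.51 without TMM), among them Phgdh, the first enzyme of serine synthesis (2.92, adjusted p = 7.02e-05), and Slc3a2, the heavy subunit of amino acid transporters (2.39, adjusted p = 0.000445). Without TMM the call for Slc3a2 was lost (0.76, adjusted p = 0.0637). Pycr1, an enzyme of proline synthesis that was not in the list, was at 0.905, 0.821 and 1.08 against 0, 0 and 0.00215, from 52 UMIs against 1 (ratio 463, interval 79.4 to 18619).

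**Figure D3:**
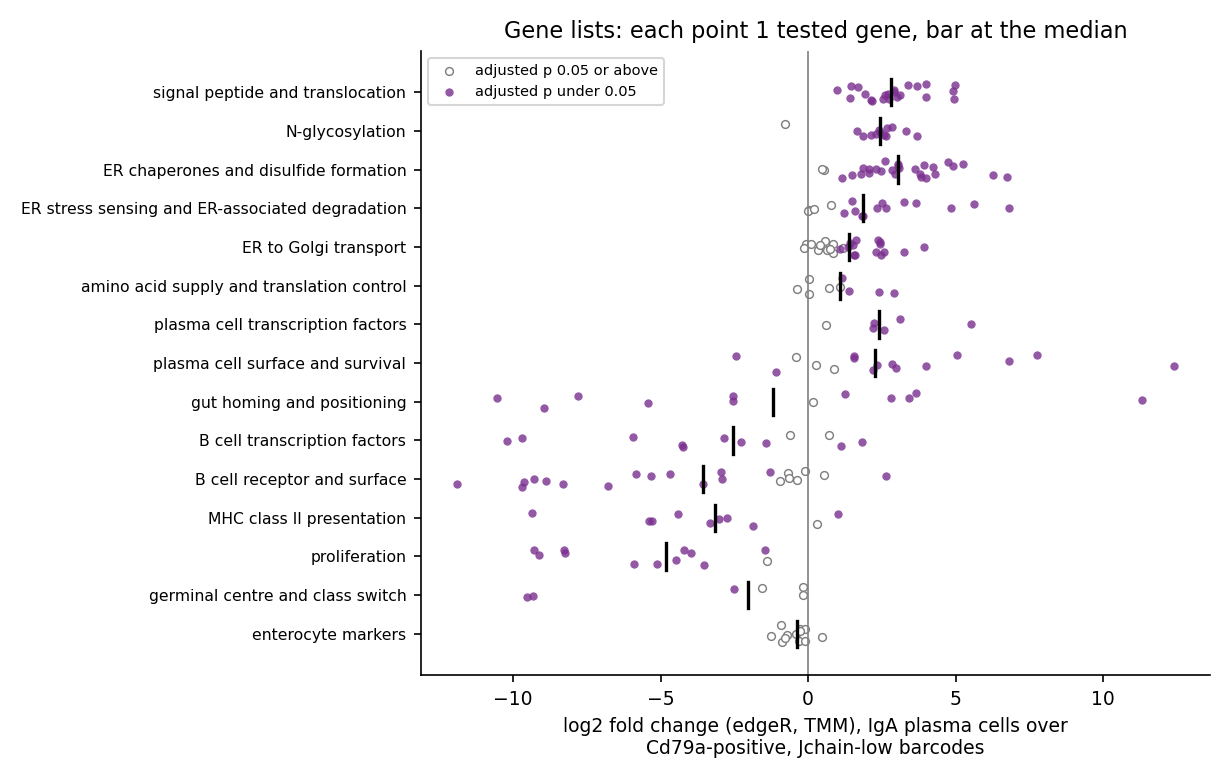
Log2 fold change of IgA plasma cells over Cd79a-positive, Jchain-low barcodes (horizontal) for the tested genes of 15 lists (vertical), filled where the adjusted p was under 0.05, with a bar at the median of each list; values of genes with 3 or fewer UMIs in 1 group, which take in all those beyond 8 on either side, are no measure of size. All 22 translocation genes lie to the right of 0 and are called (15 without TMM), and 11 of 12 proliferation genes are called to the left.

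Surface and survival genes of plasma cells were mostly higher, 11 of 16 tested, with 2 lower and a median of 2.27 (6 higher, 3 lower and 0.67 without TMM). Tnfrsf17, the receptor for the survival factor APRIL, was counted at 3.74, 4.44 and 7.03 UMIs per 10000 non-Ig UMIs in members and had no UMI in any of the 727 comparison barcodes, so that it was at least 795-fold higher than a floor of 3 UMIs over that group. Its relative Tnfrsf13b (TACI) was at 3.33, 3.14 and 3.56 against 0.565, 1.11 and 0.713 (log2 fold change 2.32, adjusted p = 0.000198), a call lost without TMM (0.71, adjusted p = 0.0766). Tnfrsf13c, the BAFF receptor of mature B cells, was lower at 0.864, 1.06 and 0.827 against 1.93, 2.26 and 2.67 (-1.07, adjusted p = 0.0289). This call was lost without the duodenum (-1.15, adjusted p = 0.122) or without the ileum (-0.83, adjusted p = 0.163). Sdc1 was at 4.36, 5.50 and 6.78 against 0.0942, 0.0442 and 0.373 (5.06, SE 0.47, adjusted p = 5.87e-06). Ly6c2 (7.76), Cd93 (3.98) and Slamf7 (2.84) were higher, whereas Cd38 was lower (-2.45, adjusted p = 0.00102). Cd28, best known as the costimulatory receptor of T cells, was at 1.89, 1.30 and 3.72 against 0, 0.0442 and 0.0323 (6.80, SE 0.49, adjusted p = 1.36e-06), and Ctla4, its inhibitory relative and not in the list, at 0.740, 1.06 and 4.30 against 0, 0.0885 and 0.0323 (6.70, SE 0.58, adjusted p = 3.47e-06). Cd28 was counted in 38 and Ctla4 in 24 of the 65 members. The T cell markers, of which the rule set Cd3e to 0, were highest in the ileum too (0.910 UMIs per 10000 non-Ig UMIs, with UMIs of Cd3d, Trbc2, Cd4 and Cd2), and their part in the levels of both genes was not tested.

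Receptors for homing and positioning went in both directions, with 5 of 12 tested genes higher and 6 lower (median -1.18, and 0.27 without the ileum). Ccr10, the receptor for the mucosal chemokine CCL28, was at 3.95, 4.88 and 8.19 UMIs per 10000 non-Ig UMIs in members against 0, 0 and 0.00215, from 296 UMIs against 1 (ratio 2633, interval 469 to 104359). Ccr9, the receptor for the small intestinal chemokine CCL25, was at 1.07, 1.26 and 0.745 against 0, 0 and 0.172 (3.4, SE 0.62, adjusted p = 0.00139). Itgb7, which pairs with Itga4 in the gut homing integrin, differed by 3.67 on the log2 scale (adjusted p = 1.70e-05), Itgal 2.82 (adjusted p = 0.000230) and Itga4 1.26 (adjusted p = 0.0167). The call for Itga4 was lost without the ileum (0.82, adjusted p = 0.180), and its direction turned without TMM (-0.35). Among the lower genes of this list, Ccr7, the lymph node homing receptor, had no UMI in members against 2.21, 2.03 and 1.69 UMIs per 10000 non-Ig UMIs, and was at least 32.9-fold lower. Cxcr4 (-2.56) was lower as well, and S1pr1, the receptor for exit from lymphoid tissue, had 1 UMI in members (37.2-fold lower, 6.63 to 1474).

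Of the 15 genes with the largest positive fold changes, 9 were in none of the lists, among them Bhlha15, Pycr1 and Ctla4 given above. Slpi, a protease inhibitor of mucosal surfaces, was at 16.4, 14.6 and 9.60 UMIs per 10000 non-Ig UMIs against 0, 0.0442 and 0.0194 (9.12, SE 0.54, adjusted p = 4.04e-07), and ranged from 0 to 150 among single members, with 54.5% of the jejunal UMIs in 1 barcode. Prg2, best known as the major basic protein of eosinophil granules, was at 9.58, 7.29 and 3.64 against 0, 0.0885 and 0.00431 (8.73, SE 0.61, adjusted p = 1.36e-06) and was counted in 52 of 65 members. The agouti gene (a) was at 1.07, 1.11 and 1.24 against 0, 0 and 0.00215, from 64 UMIs against 1 (ratio 569, interval 98.6 to 22836). Trf, which encodes the iron carrier transferrin, differed by 7.59 on the log2 scale (adjusted p = 1.36e-06). Tmem176b and Tmem176a, neighbouring genes for membrane proteins, were counted in 64 of 65 members each. Tmem176b was at 17.1, 27.2 and 11.5 against 0, 0.0442 and 0.487 (6.60, adjusted p = 5.06e-05), and Tmem176a had a log2 fold change of 6.29. Bst2 (tetherin) was at 7.90, 10.6 and 7.03 against 0.188, 0.310 and 0.390 (4.92, adjusted p = 2.65e-06). It belongs to the 12 markers of macrophages and dendritic cells, which summed to 10.7, 14.6 and 11.7 UMIs per 10000 non-Ig UMIs in members against 3.20, 2.43 and 4.46, and of which Lyz2, Csf1r, C1qa, C1qb, Itgax, Siglech and Ccr2 had no UMI in any member.

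**Figure D4:**
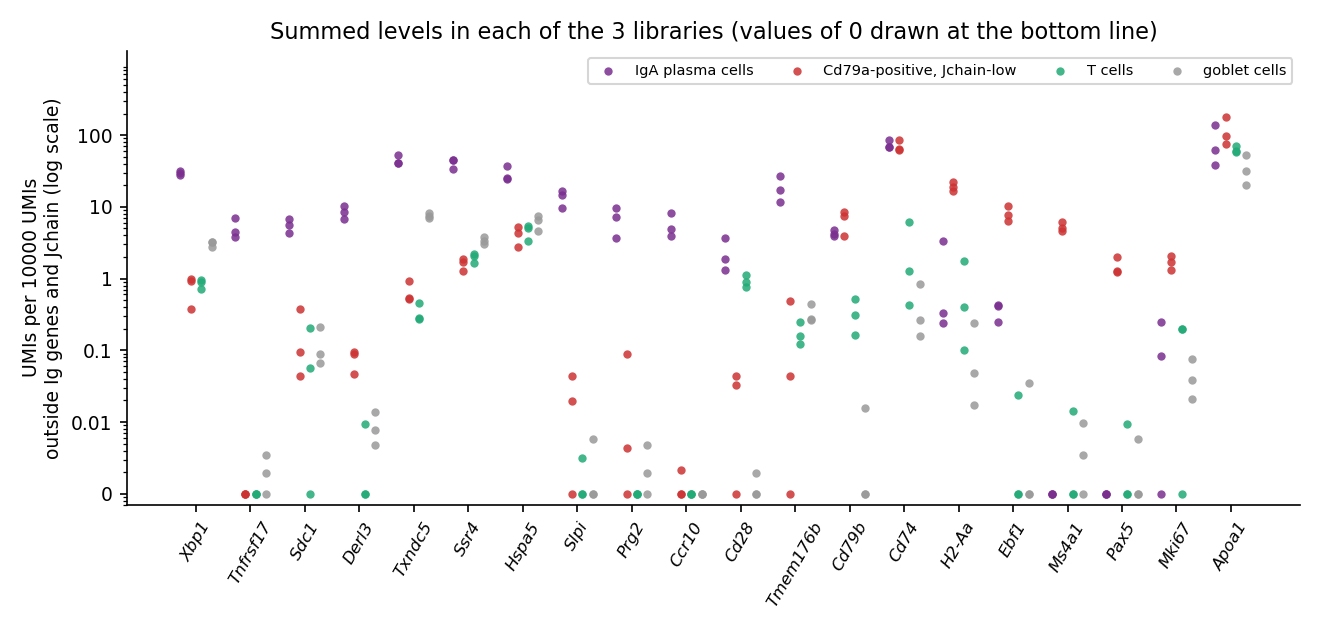
Level of 20 genes, in UMIs per 10000 non-Ig UMIs on a log scale, in IgA plasma cells, Cd79a-positive, Jchain-low barcodes, T cells and goblet cells, with 1 point for each library and values of 0 drawn on the lowest line. The members' points for Xbp1 lie at 27.7 to 31.3 and those of the comparison barcodes at 0.377 to 0.973, whereas Cd74 is close in both groups.

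The B cell programme was lower in the members. Of 12 tested B cell transcription factors, 8 were lower and 2 higher, with a median log2 fold change of -2.55. Pax5, the factor that maintains B cell identity, and Spib had no UMI in the members, and Pax5 was at 2.02, 1.28 and 1.25 UMIs per 10000 non-Ig UMIs in the comparison barcodes (at least 24.4-fold lower in members). Ebf1 was at 0.247, 0.435 and 0.414 against 10.3, 6.28 and 7.64 (-4.25, SE 0.42, adjusted p = 1.10e-05). Bach2 had 3 UMIs in members and was 21.2-fold lower (7.23 to 103), and Ciita, the activator of MHC class II genes, had 1 UMI and was 83.5-fold lower (14.9 to 3303). The 2 higher genes were Klf2, a factor of lymphocyte trafficking (1.81, adjusted p = 0.00484), and Pou2af1, a coactivator of immunoglobulin promoters (1.13, adjusted p = 0.0211). The call for Pou2af1 was lost without the duodenum (1.06, adjusted p = 0.140) and its direction turned without TMM (-0.50), and the call for Klf2 was lost without TMM (0.18, adjusted p = 0.700). Both calls were lost in barcodes with at most 20% mt- UMIs (Klf2 1.42, adjusted p = 0.122, and Pou2af1 0.73, adjusted p = 0.194).

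Among B cell receptor and surface genes 14 of 21 tested were lower and 1 was higher, with a median of -3.57. Ms4a1 was at 5.13, 4.60 and 6.18 UMIs per 10000 non-Ig UMIs in the comparison barcodes and at least 115-fold lower in the members. Cd72, Cd22 and Fcer2a had no UMI in members either, nor had Bank1, an adaptor of B cell receptor signalling outside the list. Fcmr, the receptor for IgM, had 1 UMI in members and was 157-fold lower (28.2 to 6211), and Cd83 had a log2 fold change of -3.57. Cd79b, the partner of Cd79a in the B cell receptor, was not called, at 4.73, 3.86 and 4.22 against 8.48, 3.98 and 7.55 (-0.36, SE 0.33, adjusted p = 0.463), but was lower where the comparison barcodes needed 2 Cd79a UMIs (-1.04, adjusted p = 0.0103) and without TMM (-1.99, adjusted p = 0.000798). Cd69, a tissue retention marker, was higher at 7.24, 6.08 and 10.7 against 1.41, 1.28 and 1.67 (2.65, adjusted p = 6.74e-05). Ighm and Ighd, the heavy chains of naive B cells, were lower. Ighm was counted in 3 members (log2 fold change -3.50, adjusted p = 0.00144). Ighd had 1 UMI in members and was 89.5-fold lower (16.01 to 3538). The light chain genes Igkc and Iglc1 were higher, with log2 fold changes of 8.42 and 5.93.

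MHC class II genes, which present antigen to helper T cells, were lower in 8 of 10 cases (median -3.17). H2-Aa was at 0.329, 0.241 and 3.39 UMIs per 10000 non-Ig UMIs in members against 16.4, 18.8 and 22.2 (-4.42, SE 0.58, adjusted p = 0.000115), H2-Eb1 at 1.4, 1.5 and 4.14 against 15, 14.1 and 19.8 (-2.74, adjusted p = 0.000104) and H2-Ab1 at 2.30, 2.41 and 7.78 against 13.6, 13.9 and 18.5 (-1.88, adjusted p = 0.00178). The peptide editors H2-DMb2, with 3 UMIs in members (57.3-fold lower, 19.6 to 278), and H2-Oa, with no UMI in members, were lower too. Cd74, the invariant chain of the same pathway, was at 68.7, 86.5 and 68.7 UMIs per 10000 non-Ig UMIs against 64.4, 62.0 and 86.6. It was counted in 65 of 65 members and was not called (log2 fold change 0.30, SE 0.36, adjusted p = 0.591), but it was called lower without TMM (-1.33, adjusted p = 0.00214), and its sign turned with at most 20% mt- UMIs (-0.060) and with comparison barcodes of at least 2 Cd79a UMIs (-0.31). Ctss, a protease that trims the invariant chain, was at 5.26, 4.2 and 3.06 against 2.12, 2.61 and 2.41 (1.00, adjusted p = 0.0444), a call lost without the duodenum (0.73, adjusted p = 0.316) and with the immunoglobulin genes removed (0.82, adjusted p = 0.0582), and turned to -0.63 without TMM.

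Cell cycle genes were lower in the members than in these comparison barcodes. The 16 proliferation genes summed to 2.18, 2.66 and 3.23 UMIs per 10000 non-Ig UMIs in members and to 18.8, 23.5 and 28.7 in the comparison barcodes. The same sum was 4.59, 10.3 and 9.01 in T cells, 0.832, 1.20 and 1.84 in goblet cells and 2.81, 1.25 and 2.65 in epithelial barcodes. Of the 12 that passed the filter 11 were called lower, with a median of -4.81, whereas against goblet cells 1 of 3 was higher and none lower, and against T cells 1 of 3 was lower. Birc5, Cenpf, Mcm5 and Nusap1 had no UMI in members, so that the count and the median rest in part on genes that could only be lower. Mki67 was counted in 4 members, at 0.0823, 0 and 0.248 UMIs per 10000 non-Ig UMIs against 1.70, 2.03 and 1.30 (-3.97, SE 0.60, adjusted p = 0.000320). Hmgb2 was lower (-3.52), and Top2a had 2 UMIs in members (42.5-fold lower, 11.7 to 351). Rgs13, which is expressed in germinal centres, had no UMI in members and stood at 1.32, 0.354 and 1.43 UMIs per 10000 non-Ig UMIs in the comparison barcodes. Other genes without a UMI in members were Il21r, H1fx and Gm31243, each at least 15.4-fold lower. Of 12 tested enterocyte markers none was called in either direction (median -0.37), whereas all 12 were lower without the barcodes richest in these markers (-2.10) and 5 were higher where the comparison barcodes needed 2 Cd79a UMIs (1.05). Without TMM, 10 of the 12 were lower and none higher (-1.98). The barcodes richest in these markers were ranked by the markers themselves, so the value of -2.10 is no support. Leaving them out kept 9 of 11 ileal members and 591 of 657 ileal comparison barcodes. Pigr, the epithelial receptor for polymeric IgA, was at 6.46, 1.45 and 0.0827 against 9.75, 7.03 and 2.35.

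Against T cells (52, 149 and 1264 barcodes with at least 2 Cd3d, Cd3e or Cd3g UMIs and no Mzb1 or Cd79a UMI) the members differed in the same machinery. Both comparisons use the same sums of the members, so the values are given side by side. Of 5977 genes, 916 (15.3%) were higher and 893 (14.9%) lower in the members. In this comparison 20 of 22 translocation genes, 26 of 29 ER chaperones and 14 of 16 genes of ER-associated degradation were higher and none lower. Without TMM the median of all genes moved by -1.72 on the log2 scale, with 224 genes higher and 5095 lower. Of the 916 higher genes, 204 were then called lower. Xbp1 was at 0.893, 0.704 and 0.943 UMIs per 10000 non-Ig UMIs in T cells (log2 fold change 5.41, SE 0.29, adjusted p = 3.67e-11), and Derl3 at 0, 0 and 0.00949 (10.16). Irf4 was higher in members by 6.10 (adjusted p = 7.12e-10) and Cd69 by 2.49 (adjusted p = 1.49e-07). Cd28 stood at 0.893, 1.14 and 0.770 in T cells, below the members in each library (1.55, SE 0.31, adjusted p = 0.000602), and Ctla4 at 0.406, 0.805 and 0.475 (2.07, adjusted p = 0.000454). The call for Ctla4 was lost without the ileum (0.90, adjusted p = 0.0597) and without TMM (0.33, adjusted p = 0.498), and for Cd28 the fold change turned to -0.16 without TMM. Itgae, the integrin chain by which intraepithelial lymphocytes hold on to epithelium, was at 3.69, 4.89 and 3.65 in T cells and had 1 UMI in members (215-fold lower, 38.6 to 8500). Ccr9 was higher in T cells at 1.58, 3.54 and 2.80 (-0.998, adjusted p = 0.0128), a call lost without the ileum (-0.75, adjusted p = 0.0526) or the jejunum (-0.91, adjusted p = 0.127). Itgal was higher in members (1.41, adjusted p = 0.000980), but not without TMM (-0.30).

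Goblet cells, the mucin-secreting cells of the epithelium, served as a secretory reference (188, 171 and 406 barcodes with at least 5 Muc2 and 5 Fcgbp UMIs and no Mzb1, Cd3e or Cd79a UMI). Of 7222 genes 1340 (18.6%) were higher and 1698 (23.5%) lower in the members. The early steps of secretion were again higher in plasma cells, with 18 of 23 translocation genes (median 1.42), 22 of 30 ER chaperones (1.85) and 13 of 19 genes of ER-associated degradation (1.5), against 0, 2 and 2 that were lower. Without TMM the median of all genes moved by -0.96 on the log2 scale, with 602 genes higher and 3746 lower. N-glycosylation had 6 higher and 2 lower of 17 (0.55) and ER to Golgi transport 10 higher and 3 lower of 27 (0.27), and both medians fell below 0 without TMM (-0.41 and -0.68). Xbp1 stood at 2.78, 3.28 and 3.26 UMIs per 10000 non-Ig UMIs in goblet cells, between T cells and the members (2.79, SE 0.38, adjusted p = 7.99e-07). Ssr4 was at 3.33, 3.07 and 3.79 (3.13, adjusted p = 2.17e-07) and Txndc5 at 8.22, 6.97 and 7.37 (2.09, adjusted p = 6.64e-05). Derl3 was at 6.83, 10.1 and 8.6 in members against 0.0139, 0.00485 and 0.00772, with 9 UMIs in all goblet cells. Prdx4 (6.09) and Pdia4 (4.15) were higher as well. Selenom, a selenoprotein of the ER, was lower in the members at 2.71, 3.19 and 3.81 against 5.98, 5.09 and 5.28 (-1.23, adjusted p = 0.00351), a call lost without the duodenum (-1.06, adjusted p = 0.0632). Golgb1, a tether of the Golgi, was lower as well, at 0.699, 0.531 and 1.41 against 2.06, 1.99 and 2.04 (-1.78, adjusted p = 7.76e-05).

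Levels by segment were compared among members of at least 10000 UMIs (19 duodenal, 20 jejunal and 11 ileal), because the shallow members came from 2 segments only. Xbp1 was close in all segments, at 30.6, 32.0 and 27.7 UMIs per 10000 non-Ig UMIs. Prg2 was at 9.11 (exact 95% Poisson interval 7.90 to 10.4) in the duodenum, 7.35 (6.14 to 8.72) in the jejunum and 3.64 (2.64 to 4.89) in the ileum. It was counted in 19 of 19, 18 of 20 and 4 of 11 of these members, and 1 ileal barcode held 90.9% of the ileal UMIs. Ly6a was at 7.19, 9.70 and 0.910, in 13, 14 and 1 members. Ly6c2 was at 14.6, 4.15 and 2.15, with 51.4% of the duodenal UMIs in 1 barcode. Ileal members had the higher values for Ctla4, at 0.581 (0.309 to 0.993), 1.01 (0.598 to 1.6) and 4.30 (3.21 to 5.64), found in 5 of 19, 6 of 20 and 9 of 11 members. Itgb7 was at 1.29, 1.68 and 4.63 and Itga4 at 0.938, 1.51 and 3.72, with the ileal interval above the others for both. Klf2 was at 10.0, 6.50 and 20.8 with 44.8% of the ileal UMIs in 1 barcode, and H2-Ab1 at 2.23, 2.52 and 7.78 with 40.4% in 1 barcode. With 1 library for each segment, segment and library cannot be told apart, and the intervals leave out differences between cells and mice.

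**Figure D5:**
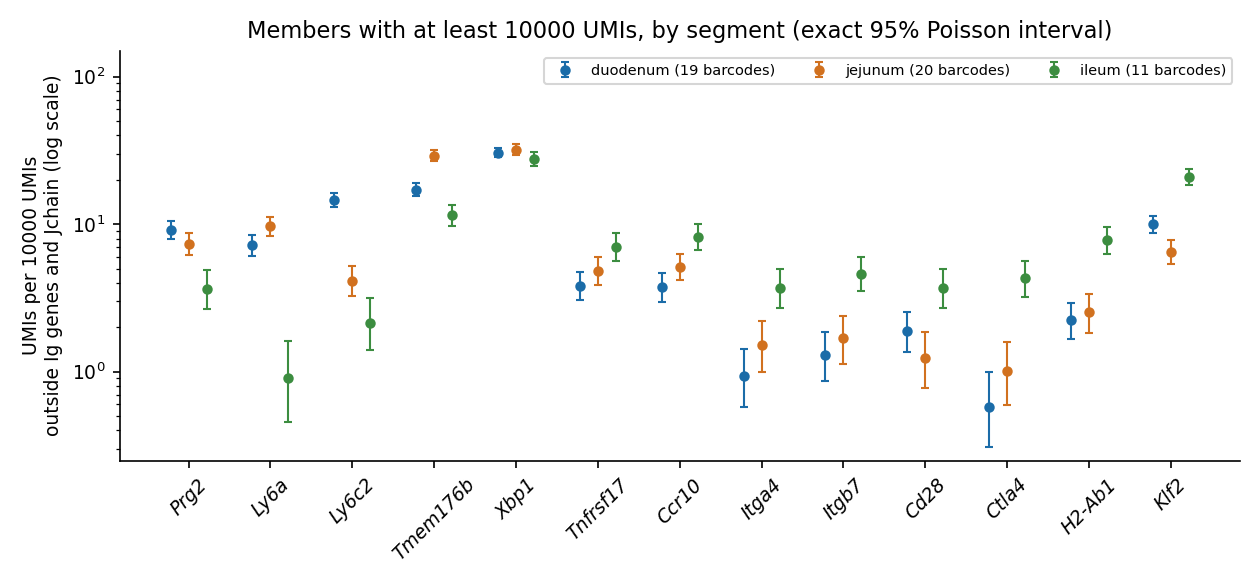
Level of 13 genes in members of at least 10000 UMIs, in UMIs per 10000 non-Ig UMIs on a log scale, by segment (19, 20 and 11 barcodes summed), with exact 95% Poisson intervals for the counting error alone. Xbp1 lies at 27.7 to 32.0 in all segments, Ly6a is lowest in the ileum at 0.910, and Ctla4 is highest there at 4.30.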

How the data were processed

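Single-cell RNA of the duodenum, jejunum and ileum was measured with 10x 3′ chemistry, 1 library per segment, each from 3 pooled mice. The deposited values are whole UMI counts per gene and barcode, not normalized, which the authors made with Cell Ranger 3.0.2 on GRCm38 (mm10) per the submitters' processing notes. The libraries held 98518847, 87656078 and 78074516 UMIs in 9501, 8139 and 9595 barcodes. Every count below was computed from these values with Python 3.11.15 and R 4.3.3. Members, lists and rules were chosen with earlier results of these data known. Named genes were the 15 with the largest fold change in each direction (adjusted p under 0.05, the same direction in every library, at least 30 UMIs, no immunoglobulin or gate gene) and members of the gene lists. Counts were summed per library and group (at least 5 barcodes) and tested by the quasi-likelihood test of edgeR 4.0.16, after filterByExpr and TMM, with a blocking term for library, and p-values were adjusted by Benjamini-Hochberg. Whether the segments came from the same mice was not established here. With library as a block, p-values measure how the difference between groups varied across 3 pooled libraries, each of another segment. They do not measure the spread between mice. The genes of the rule were not tested. No doublet caller was run. In simulated counts for the comparison with B cells (4404 genes), 81% of genes changed by 2 on the log2 scale and 10% of those changed by 1 were recovered, with 1 false call. The simulated counts held no immunoglobulin UMIs, the same gene shares in both groups before the changes, and a common dispersion. They therefore do not cover the part of the immunoglobulin UMIs or of scaling in the calls. Alternatives covered scaling, gene filter, DESeq2 1.42.0, barcode limits and leaving out each library. Members of at least 10000 UMIs were added after the data were seen. Some genes that met these rules are not reported here.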

Additional observations from a re-analysis of the deposited data

How the results depend on the processing

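Of 1706 recomputed values of single genes and of members, 1660 kept their direction and side of the threshold, 32 fell short of it, 2 newly passed it, 8 reversed and 4 moved, and 93 of 109 pairs of a named gene and a comparison kept both under every alternative run. The genes with the largest fold changes were named for their main call, and some, such as Ms4a1 and Tnfrsf17, had no UMI in 1 group. Their stability follows in part from this choice, so these shares are no support. Without TMM, the genes higher and lower in the members numbered 180 and 3780 against B cells, 224 and 5095 against T cells, and 602 and 3746 against goblet cells, and the share of higher genes among calls fell from 57.7% to 4.55%, from 50.6% to 4.21% and from 44.1% to 13.8%. This scaling also reversed Itga4 (-0.35), Pou2af1 (-0.50), Ctss (-0.63) and Cd74 (-1.33) against B cells and Cd28 (-0.16) and Itgal (-0.30) against T cells. Cd74 reversed as well at 20% mt- UMIs (-0.060) and with at least 2 Cd79a UMIs (-0.31). DESeq2's Wald test gave 420 higher and 237 lower genes against B cells, 512 lower against T cells and 1115 lower against goblet cells. Against B cells, 400 genes were higher at 20% mt- UMIs, and 850 and 739 were lower without the barcodes richest in enterocyte markers and with at least 2 Cd79a UMIs. The cause was not tested.

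Leaving out each library gave 459 to 618 higher and 310 to 501 lower genes against B cells, with the lowest counts without the duodenum. The ranges were 593 to 934 higher and 525 to 855 lower against T cells, with the lowest without the jejunum, and 1057 to 1241 higher and 1438 to 1482 lower against goblet cells. Without the library as a block, the fit called 638 and 448, 798 and 816, and 1369 and 1616 genes. The share of members with a UMI depends on depth: after thinning to 800 UMIs, Xbp1 was counted in 35 of 65 members, Sdc1 in 12, Cd79b in 4 and Cd74 in 58, against 65, 58, 56 and 65 before. At 3 libraries, differences of 1 on the log2 scale were mostly missed in simulated counts, which held no immunoglobulin UMIs.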

Other observations

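In the ileum, 6 barcodes met every limit of the rule but that on Igha. They held 3114 to 29304 UMIs and at most 4 Igha UMIs. In 3 of them Ighg2b led the heavy chain constant genes, with 1896, 2896 and 5754 UMIs. Ighg1 led in another 2, with 5741 and 923 UMIs, and Ighm in 1, with 1788 UMIs. All 6 had Igkc, and none had a Siglech or Tnfrsf17 UMI. One of them, with 2896 Ighg2b UMIs, held 35 Mki67 UMIs. The duodenum and the jejunum had no barcode of this kind.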
